A study of Homo sapiens with 6 samples.

Results

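The genes described here are 9 transcriptional targets of the tumour suppressor p53 that act in growth arrest and the stress response: CDKN1A, MDM2, BTG2, GDF15, SESN1, SESN2, CCNG1, GADD45A and TP53INP1. They were taken by symbol from the 19940 gene rows of the deposited count tables. All 9 were among the 18208 rows with enough reads to be tested. The cells were U2OS, a human osteosarcoma line, stably expressing GFP-DCP1A (a fluorescent form of a processing-body protein) under G418 selection; neither the promoter of the transgene nor whether the line is 1 clone is given in the labels. Total RNA was sequenced after removal of ribosomal RNA in 3 groups of 2 libraries. Isotonic cells were in mock-supplemented medium with 150 mM Na+ for 4 h. Hypertonic cells were in medium brought to 300 mM Na+ for 4 h. Rescue cells had the 300 mM treatment for 4 h and were then in isotonic medium for 4 h. The comparisons address transcript changes with hypertonic treatment and after its removal. No isotonic group was held for the full length of the rescue protocol, so return to isotonic medium and later harvest cannot be told apart.

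p53 is a transcription factor that is kept low by MDM2, the ubiquitin ligase that marks it for degradation. When DNA damage or another stress frees p53, it binds DNA as a tetramer and switches on genes that stop the cell cycle, repair DNA, restrain mTORC1 and, in some cells, start apoptosis. MDM2 is itself a target, which closes a negative feedback loop. Several of the 9 genes, among them GDF15, SESN2 and GADD45A, are also targets of the integrated stress response factor ATF4.

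The p53 binding site is a pair of adjoining 10-base elements. RefSeq windows from 250 bases before to 50 bases after a transcript start (GRCh38.p14) matched 7 of the 9 genes, with 13 windows in all; GADD45A and TP53INP1 had no entry. Sites were sought on both strands with a spacer of at most 1 base and are given by name because the motif needs degenerate letters. The stretches from MDM2 and SESN1, the genes with the smallest adjusted p below, are shown with the matching 20 bases in capitals. Both lie inside the gene, upstream of an internal start and outside annotated exons.
MDM2, chr12:68808903-68809000, plus strand: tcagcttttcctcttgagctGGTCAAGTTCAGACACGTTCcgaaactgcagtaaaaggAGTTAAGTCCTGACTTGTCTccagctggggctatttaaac
SESN1, chr6:109008998-109009057, minus strand: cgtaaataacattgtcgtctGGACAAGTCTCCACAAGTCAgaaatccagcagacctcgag
The first MDM2 match has 2 mismatches and the second has 3. The SESN1 match has 3 mismatches. GDF15 also holds a match with 3 mismatches at chr19:18386186-18386205 (plus strand), 28 to 47 bases after the start, in an exon spanning the UTR and coding sequence; here capitals mark the bases that fit the motif.
GDF15: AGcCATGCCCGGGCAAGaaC
A match with at most 2 mismatches was in 1.336% of all 35116 windows, and one with at most 3 was in 9.751%. The closest match in BTG2 had 4 mismatches, which 41.275% of windows reach. The best matches of CDKN1A, SESN2 and CCNG1 had 5, reached by 85.625% of windows. A match is a description of letters and does not show binding, and distal sites lie outside these windows.

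The 6 libraries held 90196278 to 105991428 counts, and 3 counts correspond to 0.0283 to 0.0333 CPM (counts scaled to a common total, by library total). Of the 18208 genes, 4117 differed at least 2-fold between the libraries labelled isotonic 1 and hypertonic 1, and 4093 between isotonic 2 and hypertonic 2. In contrast, 45 differed at least 2-fold between isotonic 1 and hypertonic 2, and 67 between isotonic 2 and hypertonic 1. The 2 rescue libraries differed at least 2-fold in 43 genes. The values therefore pair libraries that carry different group labels. The labels were kept as given, and the members' fold changes and the list counts in rescue are also given with the number 1 and with the number 2 isotonic and hypertonic libraries alone. Whether any of these libraries carry exchanged labels cannot be told from the files. The labels do not say whether the libraries came from separate cultures. The spread behind each p-value is that between libraries. In the isotonic and hypertonic groups as labelled, it includes the split between numbers 1 and 2 described above. How much of the spread is technical cannot be told.

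The negative feedback gene MDM2 rose after rescue. It stood at 178.4 CPM in isotonic 1, 173.2 in isotonic 2, 174.4 in hypertonic 1, 178.7 in hypertonic 2, 873.5 in rescue 1 and 905.6 in rescue 2. Both rescue libraries were far above the other 4, which lay within a narrow band. The fold change was 4.12 over isotonic (log2 2.04, SE 0.103, edgeR adjusted p = 0.00834) and 4.09 over hypertonic (log2 2.03, SE 0.103, edgeR adjusted p = 0.00832). Group means were 175.8 ± 3.70 CPM in isotonic, 176.5 ± 3.07 in hypertonic and 889.5 ± 22.7 in rescue (SD, n = 2). Here and below, the edgeR fold changes use TMM scaling, while CPM levels are by library total. On the latter scale rescue stands 0.295 (log2) higher over isotonic and 0.301 higher over hypertonic than with TMM. In bulk RNA, more expressing cells and more RNA per cell cannot be told apart. The MDM2 span (chr12:68808176-68850686, plus strand) shares 8490 bases with CPM, a carboxypeptidase gene on the opposite strand, whose own row was 3.10-fold higher in rescue than in isotonic (log2 1.63, SE 0.181, edgeR adjusted p = 0.0110). With the number 1 or the number 2 libraries alone, the fold of MDM2 was 4.28 or 3.97 over isotonic and 3.92 or 4.24 over hypertonic.

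SESN1 encodes a sestrin, a stress-inducible protein that restrains mTORC1. Its level was 15.6 and 16.6 CPM in isotonic 1 and 2, 17.0 and 16.2 in hypertonic 1 and 2, and 113.0 and 117.2 in rescue 1 and 2. All 4 libraries outside rescue lay close together, with rescue well above them. It rose 5.81-fold over isotonic (log2 2.54, SE 0.159, edgeR adjusted p = 0.00834) and 5.60-fold over hypertonic (log2 2.49, SE 0.158, edgeR adjusted p = 0.00832). It was 6.32-fold or 5.36-fold isotonic with the number 1 or the number 2 libraries alone, and 5.19-fold or 6.04-fold hypertonic. The gene lies at chr6:108986437-109094819 on the minus strand.

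SESN2, its paralogue, was at 25.9 and 45.0 CPM in isotonic 1 and 2, at 48.2 and 26.0 in hypertonic 1 and 2, and at 161.0 and 155.1 in rescue 1 and 2. The libraries outside rescue fell at 2 levels, and each level held 1 isotonic and 1 hypertonic library. Rescue was 3.58-fold isotonic (log2 1.84, SE 0.489), which did not pass the test (edgeR adjusted p = 0.0618), and 3.40-fold hypertonic (edgeR adjusted p = 0.0664). Its fold with the number 1 or the number 2 libraries alone was 5.23 or 2.71 over isotonic and 2.52 or 5.19 over hypertonic. DESeq2, limma voom and scaling by library totals each called SESN2 higher in both comparisons.

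TP53INP1 encodes a p53-induced nuclear protein with roles in autophagy and cell death. It measured 23.8 and 14.0 CPM in isotonic 1 and 2, 14.8 and 24.6 in hypertonic 1 and 2, and 147.2 and 148.5 in rescue 1 and 2. Here isotonic 1 and hypertonic 2 were the higher pair outside rescue, the opposite of SESN2. It rose 6.44-fold over isotonic (log2 2.69, SE 0.316, edgeR adjusted p = 0.0118) and 6.15-fold over hypertonic (edgeR adjusted p = 0.0119). The number 1 or the number 2 libraries alone gave 5.32-fold or 8.14-fold over isotonic and 7.66-fold or 5.12-fold over hypertonic. The gene (chr8:94925972-94949411, minus strand) lies wholly within the span of NDUFAF6, a mitochondrial complex I assembly gene on the opposite strand. The NDUFAF6 row was 3.58-fold higher in rescue than in isotonic (edgeR adjusted p = 0.00834). Opposite-strand nested gene pairs were checked where the inner gene had at least 100 summed counts. In 500 of 500, the outer gene's row was at least as large as the inner gene's in every library. The rows may therefore hold reads from introns and from either strand. With the TP53INP1 counts taken out, the NDUFAF6 row held 39.1 and 37.4 CPM in isotonic, 35.6 and 37.5 in hypertonic and 100.2 and 105.0 in rescue. Reads of the overlapping genes cannot be told apart in these rows.

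BTG2, an antiproliferative gene that recruits the CCR4-NOT deadenylase, lies at chr1:203305491-203309602 on the plus strand. It had 25.2 and 11.0 CPM in isotonic 1 and 2, 11.0 and 24.5 in hypertonic 1 and 2, and 198.6 and 190.9 in rescue 1 and 2. Rescue was at least 7.57 times the highest other library. The rise was 8.95-fold over isotonic (log2 3.16, SE 0.530, edgeR adjusted p = 0.0223) and 9.06-fold over hypertonic (log2 3.18, SE 0.530, edgeR adjusted p = 0.0218). The number 1 or the number 2 libraries alone gave 6.62-fold or 13.7-fold over isotonic and 13.6-fold or 6.78-fold over hypertonic.

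GDF15 encodes a secreted stress cytokine of the TGF-beta superfamily and lies at chr19:18374731-18389176 on the plus strand. It held 0.835 CPM (88 counts) in isotonic 1, 1.66 (150 counts) in isotonic 2, 2.12 (215 counts) in hypertonic 1 and 1.02 (106 counts) in hypertonic 2. In rescue 1 and 2 it held 57.8 and 55.6 CPM, or 6127 and 5112 counts. This was the largest fold change among the 9 genes: 36.4-fold over isotonic (log2 5.19, SE 0.657, edgeR adjusted p = 0.0131) and 28.7-fold over hypertonic (log2 4.84, SE 0.645, edgeR adjusted p = 0.0143). The size depends on the library: the number 1 or the number 2 libraries alone gave 58.1-fold or 26.3-fold over isotonic and 20.6-fold or 47.1-fold over hypertonic.

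CDKN1A encodes p21, the inhibitor of cyclin-dependent kinases through which p53 halts the cell cycle. It stood at 105.1 and 251.6 CPM in isotonic 1 and 2, 253.0 and 102.0 in hypertonic 1 and 2, and 561.7 and 526.0 in rescue 1 and 2. Both rescue libraries were above all others, by 2.08-fold at the closest, but isotonic 2 and hypertonic 1 were already well above isotonic 1 and hypertonic 2. The rescue to isotonic fold was 2.43 (log2 1.28, SE 0.681) and did not pass the test (edgeR adjusted p = 0.245). The value over hypertonic was the same to 3 digits (edgeR adjusted p = 0.243). The fold of CDKN1A with the number 1 or the number 2 libraries alone was 4.44 or 1.67 over isotonic and 1.65 or 4.55 over hypertonic. The gene is at chr6:36676460-36687339 on the plus strand.

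GADD45A, a damage-inducible stress sensor that binds PCNA and CDK1, lies at chr1:67685061-67688338 on the plus strand. It read 31.6 and 60.2 CPM in isotonic 1 and 2, 62.8 and 30.9 in hypertonic 1 and 2, and 97.4 and 93.2 in rescue 1 and 2. Rescue lay above every other library, by 1.48-fold at the closest. The fold was 1.66 over isotonic (log2 0.73, SE 0.537, edgeR adjusted p = 0.380) and 1.62 over hypertonic (edgeR adjusted p = 0.401), and neither passed the test. The number 1 or the number 2 libraries alone gave a fold of 2.59 or 1.22 over isotonic and 1.17 or 2.63 over hypertonic.

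CCNG1 encodes cyclin G1, which binds a PP2A subunit and acts on the p53-MDM2 loop. It was the exception: 72.4 and 75.8 CPM in isotonic 1 and 2, 76.1 and 71.4 in hypertonic 1 and 2, and 61.5 in both rescue libraries. Rescue was below all other libraries. The log2 change was -0.57 in each comparison (SE 0.143) and missed the threshold over isotonic (edgeR adjusted p = 0.0525) and over hypertonic (edgeR adjusted p = 0.0515). Its log2 change with the number 1 or the number 2 libraries alone was -0.46 or -0.67 over isotonic and -0.69 or -0.45 over hypertonic. DESeq2 called it lower in both comparisons, and limma voom called it lower over hypertonic. With library totals in place of TMM scaling it was not called in either. Across the settings tried, its log2 change lay between -0.675 and -0.269 over isotonic and between -0.687 and -0.263 over hypertonic. The gene lies at chr5:163437569-163446151 on the plus strand.

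**Figure D1:**
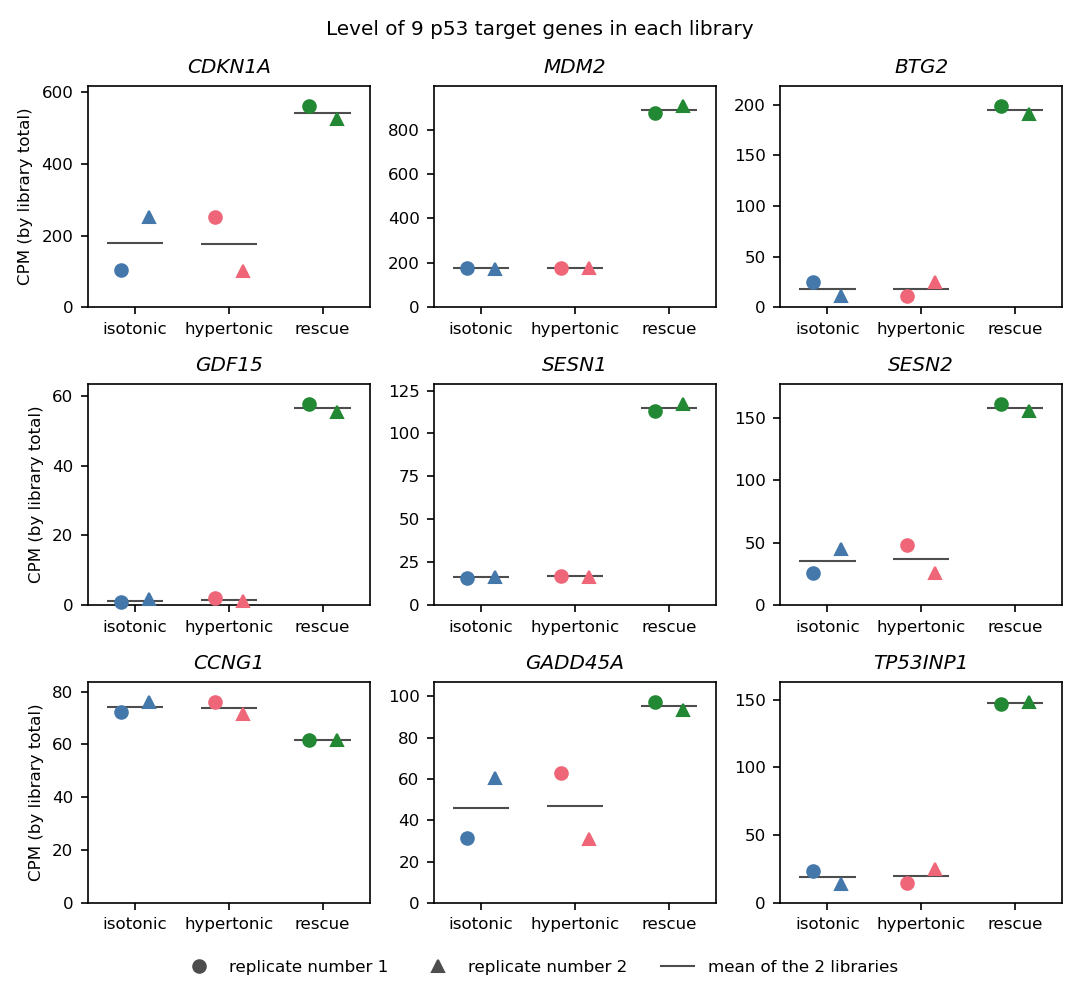
CPM by library total (y axis, linear from 0) of the 9 genes in the 6 libraries, by group on the x axis; circles are replicate number 1, triangles number 2 and lines the mean of 2. In 8 genes both rescue libraries are above the other 4 and in CCNG1 they are below, while CDKN1A, BTG2, GDF15, SESN2, GADD45A and TP53INP1 split by number in the isotonic and hypertonic groups.

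Counted together, 5 of the 9 genes (MDM2, SESN1, TP53INP1, GDF15 and BTG2) rose over isotonic, where 23.1% of all tested genes were called, 9.61% higher and 13.5% lower. The same 5 rose over hypertonic, where 23.6% were called, 9.86% higher and 13.8% lower. No member passed the test in the lower direction in either comparison. The members and the later lists were chosen with earlier results of these data known. Their counts beside the shares of all genes are therefore descriptive only. The median log2 change of the 9 was 2.04 over isotonic, beside -0.02 over all genes tested. Both comparisons use the same rescue libraries, and so their values are not independent. Both rescue libraries were above the other 4 for 8 of the 9 genes by library total, and this held for 46.9% of all genes on that scale. The 1 gene below in both, CCNG1, stood beside 21.8% of all genes. Rescue at least 2-fold above held for 7 of the 9 and for 17.5% of all genes. On TMM-scaled CPM the members counted 8 above and 1 below, beside 34.7% and 33.6% of all genes, and 6 at least 2-fold above, beside 13.5%.

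Each of the 5 calls depends on the full set of libraries in the 2 groups compared. Without isotonic 1, isotonic 2, rescue 1 or rescue 2, 0 of the 9 genes passed over isotonic, and without hypertonic 1, hypertonic 2, rescue 1 or rescue 2, 0 passed over hypertonic. In each of these fits 0 of all genes tested passed as well, so the counts show nothing particular to the members. With the number 2 isotonic and hypertonic libraries both left out, and again with those of number 1 left out, 8 rose and CCNG1 fell in both comparisons, in fits where the lone libraries are assumed to vary like the rescue pair. Those fits called most genes: 40.5% higher and 38.6% lower over isotonic and 41.0% higher and 40.5% lower over hypertonic with the number 1 libraries, and 40.7%, 40.1%, 40.5% and 38.6% in that order with the number 2 libraries. The sign of the change was the same in all these settings for every member.

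**Figure D2:**
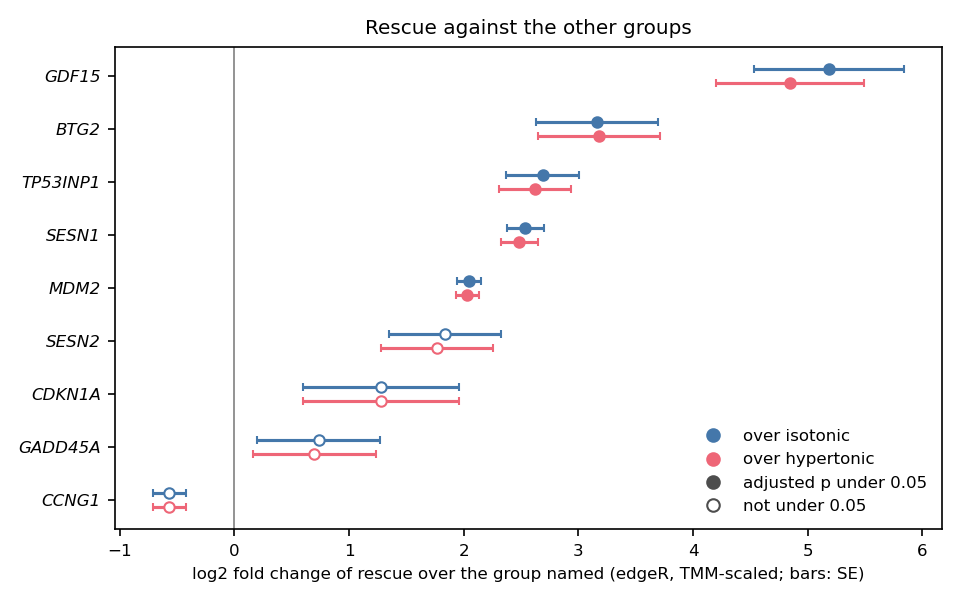
log2 fold change (x axis) of rescue over isotonic and over hypertonic for the 9 genes, with bars of 1 SE from the edgeR fit and filled points for adjusted p under 0.05. GDF15 is at 5.19 and 4.84, the called genes MDM2, SESN1, TP53INP1 and BTG2 lie between 2.03 and 3.18, and CCNG1 is at -0.57 in each.

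Between hypertonic and isotonic as labelled, 0 of the 9 genes passed the test. The largest difference was in GDF15, at log2 0.34 (SE 0.563, edgeR adjusted p = 1.0), and 0.0% of all tested genes were called. At an unadjusted p under 0.05, edgeR had 52 genes and none of the members; DESeq2 called 1 gene and limma voom called 0. With the number 1 libraries alone 6 members were higher and 2 lower in hypertonic, beside 31.6% and 32.6% of all genes, and with the number 2 libraries alone 2 were higher and 5 lower, beside 32.9% and 31.0%. For MDM2, the SE of the log2 difference was 0.0990, while for CDKN1A, whose libraries of each label stood far apart, it was 0.670. Because isotonic 1 was close to hypertonic 2, and isotonic 2 to hypertonic 1, the means as labelled nearly coincide. The lack of calls therefore does not show that hypertonic treatment left the members unchanged.

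Within each replicate number the libraries differed, in opposite directions. CDKN1A was 2.41-fold higher in hypertonic 1 than in isotonic 1 and 2.47-fold lower in hypertonic 2 than in isotonic 2. GADD45A was 1.99-fold higher and then 1.95-fold lower. SESN2 was 1.86-fold higher and 1.73-fold lower, and GDF15 was 2.54-fold higher and 1.62-fold lower. BTG2 went the other way, 2.28-fold lower within number 1 and 2.24-fold higher within number 2, as did TP53INP1, at 1.61-fold lower and 1.75-fold higher. MDM2 moved by 1.02-fold and 1.03-fold only. Differences of at least 2-fold were 2 members higher and 1 lower in number 1, beside 10.0% and 12.6% of all genes, and 1 higher and 1 lower in number 2, beside 12.0% and 10.4%. These ratios compare 1 library with 1 library and carry no test of their own.

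The difference between the 2 numbers was tested as an interaction, with the lone libraries assumed to vary like the rescue pair. It passed for 8 of the 9 genes, beside 74.5% of all genes; 6 were higher in number 1, beside 36.8%, and 2 lower, beside 37.7%. The log2 difference, number 1 minus number 2, was 2.87 for CDKN1A (SE 0.127), 2.34 for GDF15 (SE 0.294), 2.25 for GADD45A (SE 0.128), 1.99 for SESN2 (SE 0.128), -2.05 for BTG2 (SE 0.141) and -1.20 for TP53INP1 (SE 0.139). It was 0.46 for SESN1 (edgeR adjusted p = 0.00220) and 0.46 for CCNG1 (edgeR adjusted p = 0.000306), and with library totals in place of TMM neither passed (edgeR adjusted p = 0.302 and 0.223). For MDM2 it was 0.22 (edgeR adjusted p = 0.110), and it had the opposite sign with library totals, at -0.08. DESeq2 called MDM2 (adjusted p = 0.0341).

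**Figure D3:**
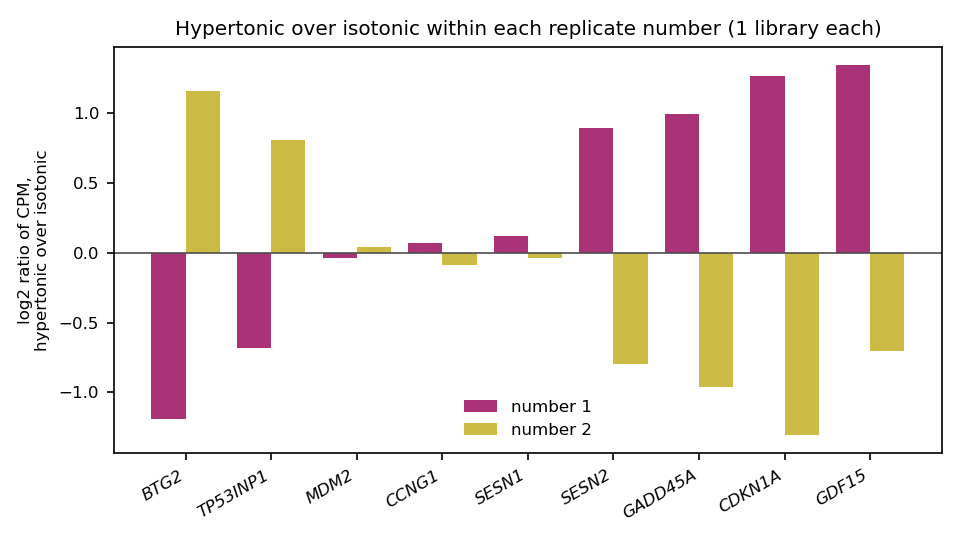
log2 ratio of CPM (y axis) of hypertonic over isotonic within number 1 and within number 2 for the 9 genes, 1 library against 1 library for each bar. CDKN1A is at 1.27 and -1.30, BTG2 at -1.19 and 1.16, and MDM2 near 0 in both.

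Across the labelled groups, members were nearly equal between isotonic 1 and hypertonic 2, and between isotonic 2 and hypertonic 1. Over the 9 genes, hypertonic 2 differed from isotonic 1 by 0.143% to 22.6%, and hypertonic 1 from isotonic 2 by 0.390% to 27.5%. The upper end was GDF15 in each case, the gene with the fewest counts. The rescue pair differed by 0.0125% to 6.37%.

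Beside the members stands the circuit that controls p53. Fits on the number 1 or the number 2 libraries alone called most genes, with the shares given above. Their counts for this list and the later ones stand beside those shares. Of its 13 genes tested, 3 fell over isotonic, beside 13.5% of all genes. These were USP7 (log2 -1.25), a deubiquitinase of MDM2, TP73 (log2 -1.22), a p53 relative, and TP53BP1 (log2 -0.96), a damage response adaptor. How many circuit genes rose as labelled is not reported here. Over isotonic, 3 circuit genes rose and 6 fell with the number 1 libraries, and 6 rose and 4 fell with the number 2 libraries. Over hypertonic the counts were 7 and 4, then 3 and 6. MDM4, the partner of MDM2, read 106.7, 44.1, 45.7, 105.2, 115.3 and 123.8 CPM in isotonic 1 and 2, hypertonic 1 and 2 and rescue 1 and 2, and did not pass (log2 0.40, edgeR adjusted p = 0.618). PPM1D, the phosphatase that ends p53 signalling, read 95.3, 289.3, 289.0, 98.7, 430.7 and 441.0 CPM in the same order and did not pass (log2 0.85, edgeR adjusted p = 0.493).

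Of 35 other p53 targets tested on 3 lists, 12 rose over isotonic (34.3%, beside 9.61% of all genes) and 0 fell. With the number 1 libraries 30 rose and 1 fell, and with the number 2 libraries 23 rose and 5 fell. Over hypertonic those counts were 22 and 4, then 32 and 1. Among 10 arrest targets, TRIM22, PHLDA3 and E2F7 rose. TRIM22 went from 6.36 and 4.36 CPM in isotonic to 85.9 and 88.8 in rescue, 13.4-fold (edgeR adjusted p = 0.00887). Of 12 repair and metabolism targets on 1 row each, 6 rose: TIGAR (3.28-fold), FUCA1 (2.85-fold), XPC (2.62-fold), FDXR (2.42-fold), DDB2 and POLH. TIGAR is a fructose bisphosphatase that steers glucose to the pentose phosphate pathway, and XPC and DDB2 recognise DNA lesions. Among 13 apoptosis targets, FAS (5.77-fold), a death receptor, BBC3 (5.31-fold), which encodes PUMA, and PIDD1 (2.94-fold) rose. PMAIP1, which encodes NOXA, split by number, with 31.9 and 153.9 CPM in isotonic, 151.5 and 31.4 in hypertonic and 111.8 and 105.8 in rescue (log2 -0.12, edgeR adjusted p = 0.950). Of the genes that rose, TRIM22 (with TRIM5), FAS (with ACTA2), XPC, POLH, TIGAR and PIDD1 overlap another protein-coding gene, and their rows may share reads. PHLDA3, E2F7, DDB2, FUCA1, FDXR and BBC3 do not. On the other lists, TP73, TP53BP1, TP53INP2, FOXM1, PLK1 and DDIT3 have such an overlap too. In the rescue to hypertonic comparison the same 12 genes rose (34.3%, beside 9.86% of all genes), 3, 6 and 3 by list.

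Close relatives of the members were tested as a list of 11, and 0 passed over isotonic, beside 23.1% of all genes. Over hypertonic only TP53INP2 passed, and it fell (log2 -0.60, edgeR adjusted p = 0.0474), beside 23.6% of all genes called. CCNG2, the paralogue of CCNG1, read 48.9 and 243.2 CPM in isotonic, 236.3 and 49.7 in hypertonic and 263.9 and 259.7 in rescue, and BTG1, a relative of BTG2, read 19.0, 106.9, 104.4, 18.4, 90.8 and 85.2 CPM in that order. In both genes isotonic 2 and hypertonic 1 were the higher pair, as in CDKN1A, and neither passed. Over isotonic, 6 relatives rose and 1 fell with the number 1 libraries, and 4 rose and 6 fell with the number 2 libraries. Over hypertonic, 4 rose and 6 fell, then 6 rose and 1 fell.

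Cell cycle genes known to be held down by p21 through the DREAM complex were counted as well. The activity of p21 and of DREAM was not measured. Of 12 tested, 8 fell and 0 rose over isotonic, beside 13.5% and 9.61% of all genes. The same 8 fell and 0 rose over hypertonic, beside 13.8% and 9.86%. They were BIRC5, CCNB1, CCNB2, CDC20, FOXM1, MKI67, PLK1 and TOP2A. BIRC5, which encodes survivin, went from 176.2 and 153.6 CPM in isotonic to 63.0 and 62.6 in rescue, 3.21-fold lower (edgeR adjusted p = 0.00834). MKI67, a proliferation marker, was 934.3 and 942.1 CPM in isotonic and 456.5 and 448.1 in rescue (2.55-fold lower, edgeR adjusted p = 0.00935). CDK1 did not pass, at 157.4 and 74.1 CPM in isotonic and 123.4 and 121.6 in rescue. CCNA2, CDC25C and E2F1 did not pass either. With the number 1 libraries 12 fell over isotonic, and with the number 2 libraries 9 fell and 2 rose. Over hypertonic, 9 fell and 2 rose with number 1, and 12 fell with number 2. The median log2 change of the list was -1.23, beside -0.02 over all genes tested.

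Several of the members are also known targets of ATF4, so ATF4 and other targets of it were counted. ATF4 activity was not measured. Of the 14 tested, ATF4 itself among them, 4 rose over isotonic (CHAC1, DDIT3, NUPR1 and STC2), beside 9.61% of all genes. Another 2 fell (SLC7A11 and VLDLR), beside 13.5%. Over hypertonic the same 4 rose, beside 9.86% of all genes, and SLC7A11 fell, beside 13.8%. DDIT3, which encodes CHOP, was 2.01-fold higher (edgeR adjusted p = 0.0283) and SLC7A11, the cystine transporter, 1.92-fold lower (edgeR adjusted p = 0.0360). PPP1R15A, a phosphatase subunit, read 18.8 and 181.9 CPM in isotonic, 182.5 and 19.4 in hypertonic and 64.1 and 59.4 in rescue, and did not pass. Over isotonic, 9 of the 14 rose and 4 fell with the number 1 libraries, and the same counts held with number 2. Over hypertonic, 9 rose and 5 fell with number 1, and 10 rose and 4 fell with number 2. With any 1 library of the 2 groups compared left out, 0 genes of any of the 7 lists passed in the rescue comparisons, nor did any of all the genes tested.

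**Figure D4:**
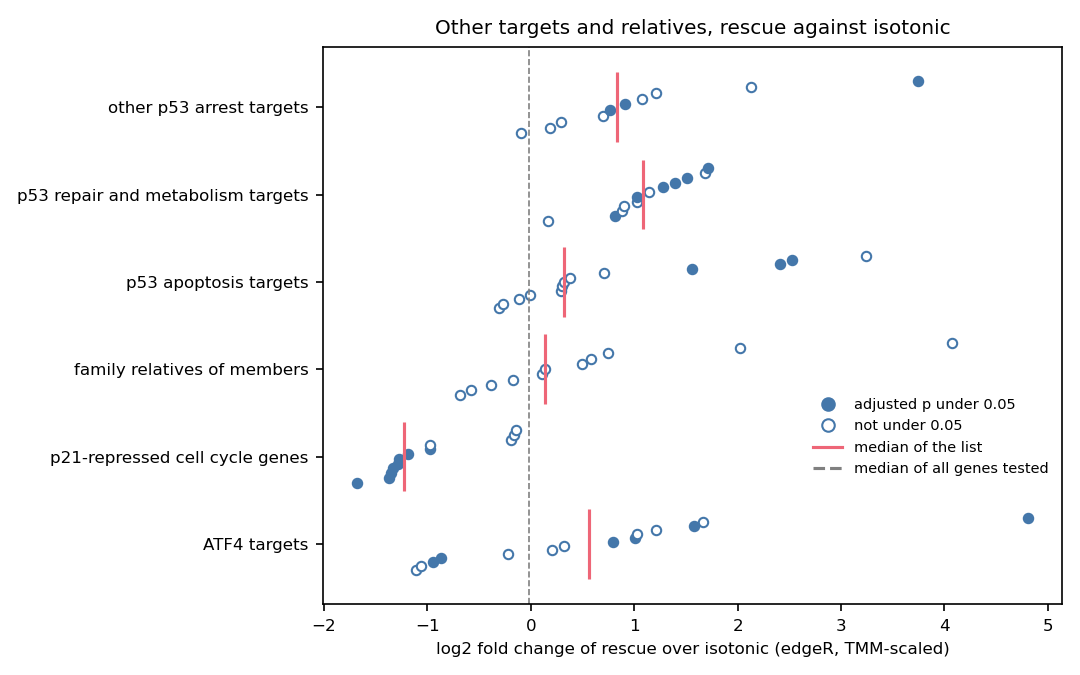
log2 fold change (x axis) of rescue over isotonic for each tested gene of 6 lists (rows), filled where the edgeR adjusted p is under 0.05, with the median of each list in red and that of all genes tested (-0.02) as a dashed line. Filled points of the 3 target lists lie above 0, while those of the cell cycle genes lie below it.

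Genes nearest to each member were found by the root mean square difference of the centred log2 pattern over the 6 libraries, among 13117 genes. For MDM2 they were PCDH17 (0.0432), TTLL1 and MAF. For CCNG1, HSBP1 was at 0.00944, followed by UBP1. TMEM45B (0.0699) was nearest to CDKN1A, ACER2 (0.124) to BTG2, PADI4 (0.252) to GDF15, TCAF2 (0.0913) to SESN1, AMN1 (0.0612) to SESN2, EPHA4 (0.0274) to GADD45A and AC013470.2 (0.0704) to TP53INP1. Among the members, MDM2 and SESN1 were nearest (0.228), then CDKN1A and SESN2 (0.274) and BTG2 and TP53INP1 (0.323).

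Marker genes of other cell types were checked in the same libraries. The 8 mesenchymal and osteosarcoma markers summed to 3288 to 3548 CPM in all groups, most of it from VIM, COL1A1 and SPARC. COL1A2 and IBSP were near 0, ALPL was at most 2.82 CPM and BGLAP at most 1.09. RUNX2 read 77.7 and 17.6 CPM in isotonic, 17.2 and 76.1 in hypertonic and 62.8 and 68.6 in rescue. COL1A1 was called lower in rescue than in hypertonic, as were 13.8% of all genes. The 6 epithelial markers summed to 17.4 to 24.5 CPM in isotonic, 17.1 to 26.4 in hypertonic and 38.0 to 40.4 in rescue. The 5 endothelial markers summed to 9.36 to 30.4, 9.01 to 29.9 and 43.4 to 45.0 CPM in that order, and the 6 leukocyte markers to 0.636 to 4.11, 0.734 to 4.40 and 3.49 to 4.19, with CD3E at 0 in isotonic and hypertonic libraries. Genes with no count numbered 690 and 699 in rescue and 1248 to 1653 elsewhere. Over isotonic, EPCAM and ESRP1 (at most 0.663 CPM) among the epithelial markers rose, and the other 4 did not pass. Among the endothelial markers KDR, TEK and VWF rose, and the other 2 did not pass. Of all genes, 9.61% were called higher. Over hypertonic, EPCAM and the same 3 endothelial markers rose, beside 9.86% of all genes. PECAM1 did not pass, with 3.59 and 24.7 CPM in isotonic, 23.9 and 3.48 in hypertonic and 14.3 and 12.8 in rescue. The part of these markers and of the undetected genes in the changes of the 9 genes was not tested.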

How the data were processed

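Gene counts of 6 libraries were used as deposited by the authors; per the submitters' processing notes, bcl2fastq, TopHat2, Bowtie2 and bedtools were used with GRCh38 (hg38). Their roles and versions, the annotation and the strand setting were not given in the sources used here, although the labels' protocol includes uridine digestion. Levels are CPM, counts scaled by the library total to a common size. The 33 names found on several rows were left out of the gene lists, and positions come from GENCODE 29.

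Tests were edgeR 4.0.16 quasi-likelihood tests (R 4.3.3) with filterByExpr and TMM scaling, one mean per labelled group over all 6 libraries, two-sided, with Benjamini-Hochberg adjustment over 18208 genes at 0.05. The biological coefficient of variation was 38.4%, with 3 residual degrees of freedom. SE is the log2 fold change divided by the root of F. The number difference had 1 coefficient for each isotonic and hypertonic library. The scripts were tested on simulated data. At the spread seen between these libraries, a gene that did not pass is not shown to be unchanged. Alternatives were DESeq2 1.42.0, limma voom 3.58.1, other scalings, no filter, a replicate block and libraries left out. Named genes were the 9 members, MDM4, per list up to 4 called genes by largest change (mean at least 5 CPM) and up to 2 by the ratio within number 1, and up to 3 like genes per member; genes that complete a list's calls are named without values. The genes CPM and NDUFAF6 were added because their spans overlap members. CDKN1A, MDM2 and SESN1 also overlap opposite-strand genes that have no row. Some items that the rule names are not reported here. The members and lists were chosen with earlier results of these data known.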

Additional observations from a re-analysis of the deposited data

Results flagged for a closer look

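For 8 of the 9 genes the ratio of hypertonic over isotonic differed between replicate numbers 1 and 2 by an interaction term in edgeR, adjusted over all genes. The log2 difference, number 1 minus number 2, was 2.87 for CDKN1A, 2.34 for GDF15, 2.25 for GADD45A and 1.99 for SESN2. It was 0.46 for SESN1 and 0.46 for CCNG1. It was -2.05 for BTG2 and -1.20 for TP53INP1. The same test was passed by 74.5% of all genes, and the lone libraries were assumed to vary like the rescue pair.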

How the results depend on the processing

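Among the 9 genes, 5 rose and 0 fell in each rescue comparison, and other scalings and no low-count filter gave 5 or 6 higher. With the replicate block, 0 were higher in both comparisons. The numbers are not taken to pair the libraries: same-numbered deviations correlated at -0.952 between isotonic and hypertonic, -0.025 between isotonic and rescue and 0.039 between hypertonic and rescue. A block on the crossed numbers, chosen after seeing the data, gave 6 higher and 15 lower genes for hypertonic against isotonic. Leaving out 1 library gave 0 to 6 members higher over isotonic and 0 to 5 over hypertonic. The fits on number 1 and on number 2 each gave 8 higher and 1 lower in both rescue comparisons; DESeq2 gave 1 lower in both, and limma voom 1 lower over hypertonic. For hypertonic against isotonic, where no gene was called, the number 1 fit gave 6 higher and 2 lower members and the number 2 fit 2 higher and 5 lower, beside 5828 and 6013, then 6060 and 5716, of all genes.

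In those fits the log2 change of hypertonic over isotonic took the other sign for CDKN1A (1.43) and TP53INP1 (-0.53) in number 1, and for BTG2 (1.02), GDF15 (-0.84), SESN2 (-0.94), CCNG1 (-0.23) and GADD45A (-1.10) in number 2. SESN1 (-0.17) and MDM2 (-0.10) also changed sign in number 2, without passing. Rescue over isotonic and over hypertonic each reversed, and passed, in 1 of the 2 fits for PLK3 (-0.50, -0.61), PMAIP1 (1.55, 1.56), BTG1 (-0.65, -0.63), CCNG2 (-0.27, -0.23), CDC25C (0.54, 0.62), CDK1 (0.35, 0.32) and PPP1R15A (1.49, 1.44). These fits use fewer libraries, and the cause was not tested.

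Over all genes, 1749 rose and 2453 fell over isotonic, against 2051 and 1096 with library totals, 2091 and 1404 with upper quartile scaling, 3286 and 3712 with DESeq2, 2378 and 2518 with limma voom and 0 with the replicate block or with any 1 library of the groups compared left out. Over hypertonic the main counts were 1796 and 2508, and those with library totals 2109 and 1098. TMM scaling moved 15 group means of the members by more than 1 SD and 12 by less. GDF15 outside rescue rests on 88 to 215 counts, which limits its fold change. Library totals raised rescue over isotonic by 0.295 (log2) relative to TMM.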
